A study of Mus musculus with 4 samples.

Results

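The RNA levels of 10 genes that keep retroelements silent or assemble histones on DNA were measured in mouse embryonic stem cells (mESCs) with and without a change in the chromatin protein CTCF. The genes are Trim28, Setdb1, Atf7ip, Zfp809, Smchd1, Chaf1a, Chaf1b, Daxx, Atrx and Kdm1a. They were found by symbol in the table of raw read counts, where they took 11 of 37620 rows, because the annotation gives Atf7ip a pair of gene models. All 11 passed the filter on low counts, as did 16264 rows in all.

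Retroelements are copies of viral and other mobile sequences that make up much of the mouse genome and are kept silent in mESCs by chromatin. KRAB zinc finger proteins such as ZFP809, which binds the primer binding site of murine leukaemia virus, recognise the elements and recruit TRIM28. TRIM28 in turn brings SETDB1, the methyltransferase that places H3K9me3 there, and ATF7IP keeps SETDB1 stable and nuclear. CHAF1A and CHAF1B are subunits of CAF-1, which deposits histones behind the replication fork and is known for restraining a 2-cell-like state. DAXX and ATRX deposit the histone variant H3.3 at repeats, SMCHD1 is an SMC-family protein of the inactive X and imprinted clusters, and KDM1A (LSD1) removes methyl groups from H3K4 and silences the MERVL retroelement. The count table holds genes only, so the RNA of the retroelements themselves was not measured here.

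Both lines, WT_CTCF and MUT_CTCF, were made from mESCs whose own CTCF carries EGFP and an AID tag, so that auxin degrades it. A vector then supplied either wild-type CTCF (WT_CTCF) or CTCF changed from threonine to alanine at residue T668, the site of O-GlcNAc (MUT_CTCF). Both lines were grown on gelatin in medium with 15% serum and 1000 U/mL LIF, and each line came from a clone picked for a CTCF level close to that of the endogenous protein, so the effect of the residue and that of the clone cannot be told apart. The lines were kept in auxin to remove the endogenous protein, and the study's RNA-seq methods name no time in auxin of their own. There were 2 libraries per line, which the study's methods call biological replicates of a line, so p-values measure the spread between samples of 1 clone per line.

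The libraries held 40524694 to 40977464 counts each, and TMM scaling factors lay between 0.994 and 1.01. Ctcf, the altered gene, had 18273 and 18625 counts in WT_CTCF and 18954 and 19233 in MUT_CTCF, which is 0.044 higher on the log2 scale (standard error 0.028, edgeR adjusted p = 0.499). Counts per gene do not separate vector from endogenous CTCF or show the residue, so they do not check the labels. The 8 mESC markers, Pou5f1 and Nanog among them, were all detected and summed to 5178 to 5216 CPM (counts scaled by library size and TMM factor) in WT_CTCF and 5188 to 5203 in MUT_CTCF. Of these markers 1 rose, Sox2, by 0.10 on the log2 scale (edgeR adjusted p = 0.0358). Markers of other cell types were low: summed CPM stood at 45.6 to 47.0 against 46.4 to 51.8 for fibroblasts, with Lum at 0 counts, 15.1 to 15.7 against 16.2 to 20.7 for primitive endoderm, and 17.2 to 18.2 against 16.7 to 18.2 for mesoderm. Neural ectoderm markers summed to 63.2 to 63.6 CPM in WT_CTCF and 67.8 to 69.2 in MUT_CTCF, and none of these lists of other cell types had a gene past an adjusted p of 0.05. Few of their genes were tested: 5 of 8 for fibroblasts, 5 of 7 for primitive endoderm, 5 of 5 for mesoderm and 2 of 5 for neural ectoderm. Their median log2 fold changes were 0.027, 0.37, 0.045 and 0.28 in that order. Trophectoderm markers summed to 45.9 to 48.0 CPM in WT_CTCF and 37.7 to 40.0 in MUT_CTCF, with 2 of 5 lower, Cdx2 at -0.97 and Krt8 at -0.30 (edgeR adjusted p = 2.27e-04 and 0.0319). Of 20 S phase genes, 1 was lower (Mcm5, at -0.085, edgeR adjusted p = 0.0178), and their sums were 6467 to 6491 and 6464 to 6556 CPM. The part of these shifts in the results below was not tested.

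The 10 genes differed in base composition as well as in level. The share of G and C among exon bases ran from 38.7% in Atrx to 57.3% in Trim28. To show this range, a stretch of 90 bases is given from a coding exon of the most abundant factor, of the factor that was higher in MUT_CTCF, and of the pair at the lowest levels. Each stretch was taken where its composition is nearest that of the gene's exons, in mm9, 5′ to 3′ on the coding strand, with G and C in capitals. The Trim28 stretch lies at chr7:13613005-13613094 (+ strand), that of Kdm1a at chr4:136109712-136109801 (− strand), that of Smchd1 at chr17:71698227-71698316 (− strand) and that of Atrx at chrX:102999142-102999231 (− strand).
Trim28: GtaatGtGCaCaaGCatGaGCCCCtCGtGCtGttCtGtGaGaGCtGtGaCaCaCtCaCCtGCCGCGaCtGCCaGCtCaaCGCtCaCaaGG
Kdm1a: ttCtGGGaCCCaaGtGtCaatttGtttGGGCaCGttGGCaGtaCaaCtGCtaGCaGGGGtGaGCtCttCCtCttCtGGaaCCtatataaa
Smchd1: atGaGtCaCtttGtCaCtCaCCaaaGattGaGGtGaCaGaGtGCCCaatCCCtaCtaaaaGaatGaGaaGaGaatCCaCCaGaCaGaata
Atrx: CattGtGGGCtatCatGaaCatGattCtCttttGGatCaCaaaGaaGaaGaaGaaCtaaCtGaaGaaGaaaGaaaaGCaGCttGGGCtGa
G and C made up 57.8% of the Trim28 stretch, 47.8% of the Kdm1a stretch, 42.2% of the Smchd1 stretch and 38.9% of the Atrx stretch. GAA triplets recur in the Atrx letters, whereas the Trim28 letters are mostly G and C.

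Trim28, the corepressor at the centre of the pathway, was by far the most abundant factor. Its level in RPKM (reads scaled for exon length and library size, the latter by TMM) was 833 and 828 in WT_CTCF and 775 and 804 in MUT_CTCF. It ranked 46 among tested genes by level and took 0.315% to 0.335% of all counts in a library. Trim28 alone gave 71.6% of the counts of the 11 rows.

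Kdm1a followed at 85.8 and 87.4 RPKM in WT_CTCF and 90.6 and 95.4 in MUT_CTCF, a mean of 89.8 that became 154 when the longest transcript gave the length. Chaf1a, the large CAF-1 subunit, stood at 63.4, 63.1, 66.2 and 62.4 RPKM in WT_CTCF replicates 1 and 2 and MUT_CTCF replicates 1 and 2. Setdb1 was at 37.4, 39.6, 37.1 and 36.2 RPKM in the same order of libraries. These enzymes and chaperones all ranked within the top 1859 of the 16264 tested genes by level.

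Daxx, the H3.3 chaperone, stood at 35.6, 36.3, 34.1 and 35.9 RPKM. Atf7ip (the model with 15 exon blocks) was at 24.8, 26.8, 26.0 and 26.8 RPKM. Chaf1b, the CAF-1 subunit with WD repeats, was at 23.5, 23.8, 23.9 and 23.6 RPKM. In the order of levels, no 2 neighbours overlapped between libraries of the same line, but Setdb1 and Daxx came within 36.2 and 35.9 RPKM in MUT_CTCF, so their order rests on a narrow gap.

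The other rows stood below these. The single-exon Atf7ip model, just downstream of the main one at chr6:136556350-136559373, was at 7.70, 8.10, 8.03 and 7.13 RPKM, and Zfp809 was at 6.69, 6.70, 6.51 and 6.24 RPKM. Smchd1 was at 1.64, 1.68, 1.76 and 1.78 RPKM. Atrx, the remodeller that partners DAXX, was lowest at 0.226, 0.191, 0.227 and 0.178 RPKM and ranked 14759 by level. The mean RPKM of Trim28 was 3939 times that of Atrx.

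**Figure D1:**
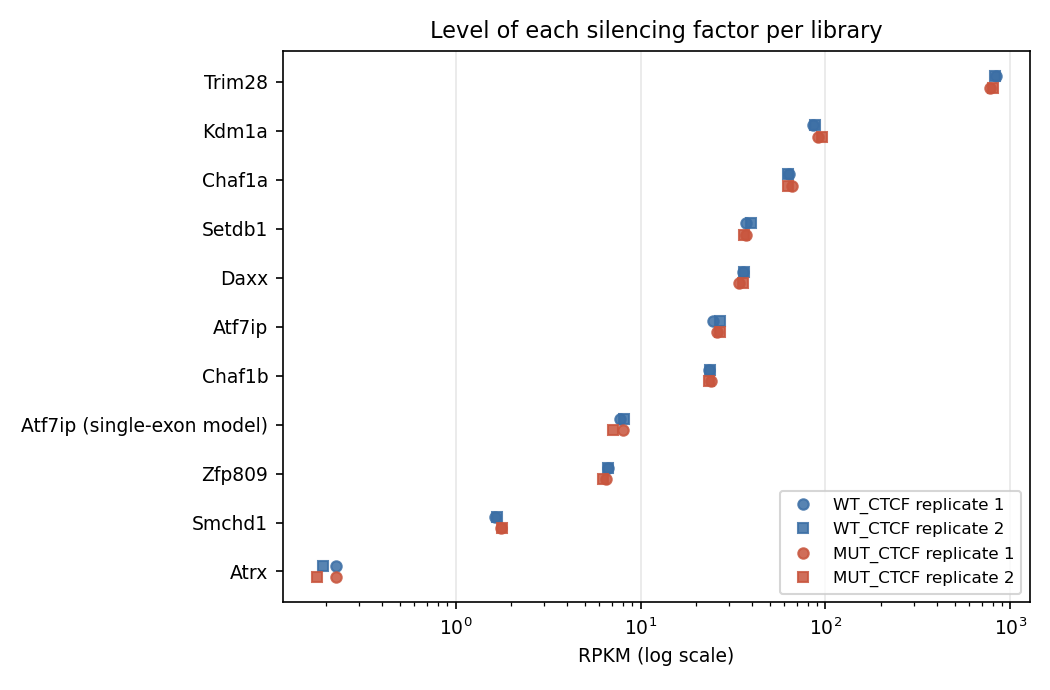
RPKM of each of the 11 rows (y axis) in the 4 libraries on a log x axis, with circles for replicate 1 and squares for replicate 2. Trim28 sits between 775 and 833, most factors lie between 23.5 and 95.4, and Smchd1 and Atrx lie below the rest, while the lines nearly coincide within each row.

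Factors rich in G and C tended to stand at higher levels. Over the 11 rows, with Atf7ip counted as 2 models, Spearman's correlation of exonic G and C with mean RPKM was 0.800. It was 0.105 over 14654 tested protein-coding genes. This is a description only, since genes share libraries and are not replicates. Atrx and Smchd1 also had the longest exon unions of the rows, 15190 and 7581 bases, and RPKM divides by that length. The median RPKM of tested protein-coding genes was 1.16 in the class under 40% G and C, which holds Atrx, and 3.04 between 40% and 44%, which holds Smchd1. It was 5.59 between 56% and 60%, where Trim28, Chaf1a and Daxx lie, so these 3 stood above the median of genes of like composition while Atrx and Smchd1 stood below theirs. The part of base composition or of exon length in the levels was not tested. The difference between the lines did not follow composition in the same way, as its correlation with G and C over the 11 rows was -0.136.

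**Figure D2:**
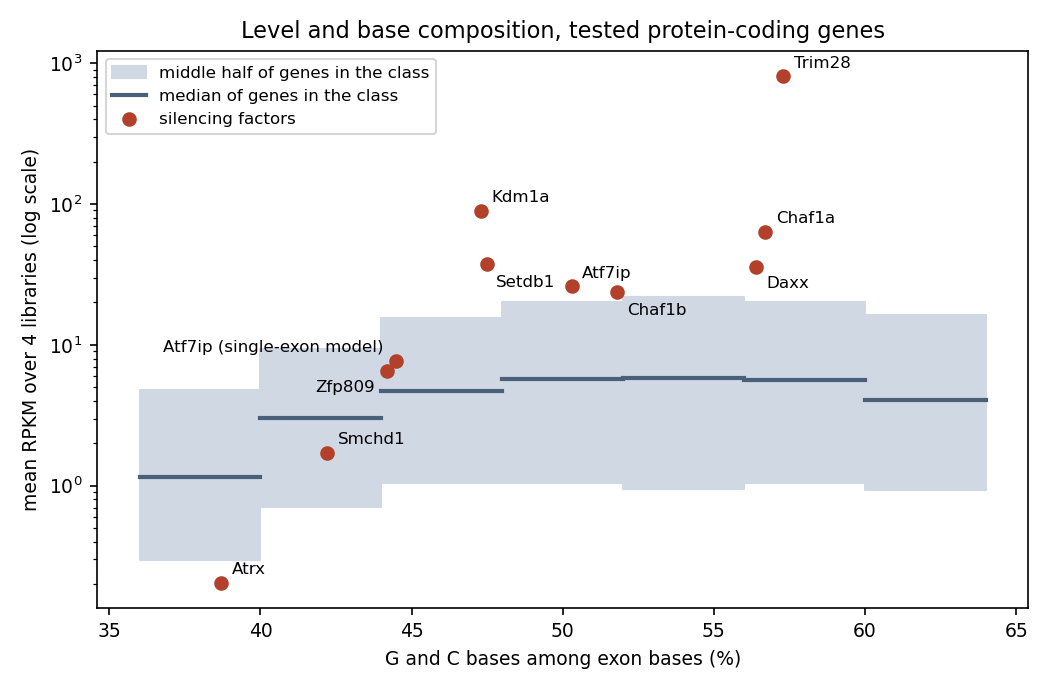
Mean RPKM over the 4 libraries (log y axis) against the percentage of G and C among exon bases, with red points for the 11 rows, a line for the median of tested protein-coding genes in each composition class and a band for the middle 50% of those genes. Atrx and Smchd1 lie below the medians of 1.16 and 3.04 of their classes, and the other rows lie above theirs.

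Between the lines the factors were close to level. Of the 11 rows, 2 (18.2%) passed an adjusted p of 0.05 in edgeR's quasi-likelihood test, Trim28 lower and Kdm1a higher in MUT_CTCF, against 3.17% of all tested genes (1.61% lower and 1.56% higher). The members were chosen with earlier results of these data known, and these shares were not matched for level. None of the 11 rows met the study's criterion (more than a 2-fold change and an unadjusted p below 0.05), which 1.30% of tested genes met, and 3 had an unadjusted p under 0.05, against 15.3% of tested genes. By DESeq2 none met that criterion and none passed an adjusted p of 0.05. The median log2 fold change of the rows was -0.039, against 0.0034 over all tested genes, with 5 positive and 6 negative values. The median size of the log2 fold change was 0.059 over the rows and 0.11 over all tested genes.

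Trim28 had 137302 and 136266 counts in WT_CTCF and 128992 and 132005 in MUT_CTCF. Both MUT_CTCF libraries lay below both WT_CTCF libraries. Scaled to a common library size, it went from 137053 ± 661 to 130259 ± 3365 counts (SD, n = 2), so it fell by 4.96% (log2 fold change -0.073, standard error 0.019, edgeR adjusted p = 0.0142). The gene lies at chr7:13609501-13616384, with 10 exon blocks and no exon base shared with another gene. Its call was lost with DESeq2 (adjusted p = 0.0674), edgeR's exact test (0.202), library size scaling (0.0517) and no filter (0.298). Having no filter also took the calls over all genes from 515 to 29. With MUT_CTCF replicates 1 and 2 removed in turn, the log2 fold change of Trim28 was -0.047 and -0.10. It was -0.069 and -0.079 with WT_CTCF replicates 1 and 2 removed. Such fits leave 1 library in a line, so their calls are given below beside those over all genes. Of the 515 genes called with all 4 libraries, only 1 had a smaller log2 fold change in size than Trim28. The interval of Trim28 was the narrowest of the 11 rows.

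Kdm1a had 18112 and 18433 counts in WT_CTCF and 19323 and 20066 in MUT_CTCF. Both MUT_CTCF libraries were above both WT_CTCF libraries. It rose by 7.38%, from 18309 ± 237 to 19659 ± 711 normalized counts (SD, n = 2), that is by 0.10 on the log2 scale (standard error 0.029, edgeR adjusted p = 0.0326). The gene lies at chr4:136106455-136158638 on the minus strand. The call was lost with DESeq2 (adjusted p = 0.0924), the exact test (0.0861) and no filter (0.362). With MUT_CTCF replicates 1 and 2 removed in turn, the log2 fold change of Kdm1a was 0.14 and 0.064. It was 0.089 and 0.11 with WT_CTCF replicates 1 and 2 removed. Among the 515 called genes, 5.83% had a smaller change in size.

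Setdb1, the H3K9 methyltransferase recruited by TRIM28, had 10454 and 11043 counts in WT_CTCF and 10456 and 10068 in MUT_CTCF. After scaling, the MUT_CTCF libraries (10366 and 10116 normalized counts) lay just below the WT_CTCF libraries (10471 and 11069). The log2 fold change was -0.073, with a 95% interval of -0.14 to -0.0045 and an edgeR adjusted p of 0.294. Leaving out WT_CTCF replicate 1 gave -0.11, and leaving out WT_CTCF replicate 2 gave -0.033. Setdb1 spans chr3:95127447-95161124 and shares 64 exon bases with Lass2 on the opposite strand, and the strand setting of the counting is not given in the sources used here.

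Its partner Atf7ip, at chr6:136467372-136555898, had 4571, 4931, 4841 and 4930 counts in WT_CTCF replicates 1 and 2 and MUT_CTCF replicates 1 and 2, so the lines overlapped (log2 fold change 0.035, 95% interval -0.055 to 0.12, edgeR adjusted p = 0.798). The single-exon Atf7ip model had 949, 997, 1000 and 876 counts, also overlapping (log2 fold change -0.059, 95% interval -0.23 to 0.12, edgeR adjusted p = 0.831). Zfp809, at chr9:22030274-22047641, had 351 and 351 counts in WT_CTCF and 345 and 326 in MUT_CTCF. These did not overlap, but at this depth the difference of -0.071 on the log2 scale had a 95% interval of -0.35 to 0.20 (edgeR adjusted p = 0.877).

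The CAF-1 subunits did not differ detectably. Chaf1a (chr17:56179827-56206973) had 7341, 7306, 7747 and 7208 counts in the 4 libraries in the same order, a log2 fold change of 0.024 (95% interval -0.051 to 0.10, edgeR adjusted p = 0.843), and shares 144 exon bases with Ubxn6 on the opposite strand. Chaf1b (chr16:93884146-93906360) had 4785, 4849, 4913 and 4802 counts, a log2 fold change of 0.0064 (95% interval -0.080 to 0.093, edgeR adjusted p = 0.970). For both, MUT_CTCF replicate 1 was high and the lines overlapped. The interval of Chaf1b leaves room for a change between -5.41% and 6.66%.

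Both genes of the H3.3 pair overlapped between the lines after scaling, neither passing the test. Daxx (chr17:34046359-34052534) had 4434 and 4522 counts in WT_CTCF and 4295 and 4454 in MUT_CTCF (log2 fold change -0.039, 95% interval -0.13 to 0.051, edgeR adjusted p = 0.767). Atrx (chrX:102992954-103124736, minus strand) had 140 and 118 counts in WT_CTCF and 142 and 110 in MUT_CTCF, so its libraries differed more within a line than between lines. Its 95% interval ran from -29.6% to 34.4% (edgeR adjusted p = 0.966), the widest of the 11 rows. Smchd1 (chr17:71693829-71824683, minus strand) had 505 and 518 counts in WT_CTCF and 548 in each MUT_CTCF library. The lines did not overlap, and the log2 fold change of 0.094 had a 95% interval of -0.13 to 0.32 (edgeR adjusted p = 0.781).

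In all, normalized counts of the lines did not overlap in 5 of the 11 rows, higher in MUT_CTCF for Kdm1a and Smchd1 and lower for Trim28, Setdb1 and Zfp809, whereas 44.7% of all tested genes had lines that did not overlap. With 2 libraries per line, the smallest two-sided p of an exact permutation test is 0.333, and the adjusted p-values therefore borrow their error from the spread of other genes in edgeR.

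**Figure D3:**
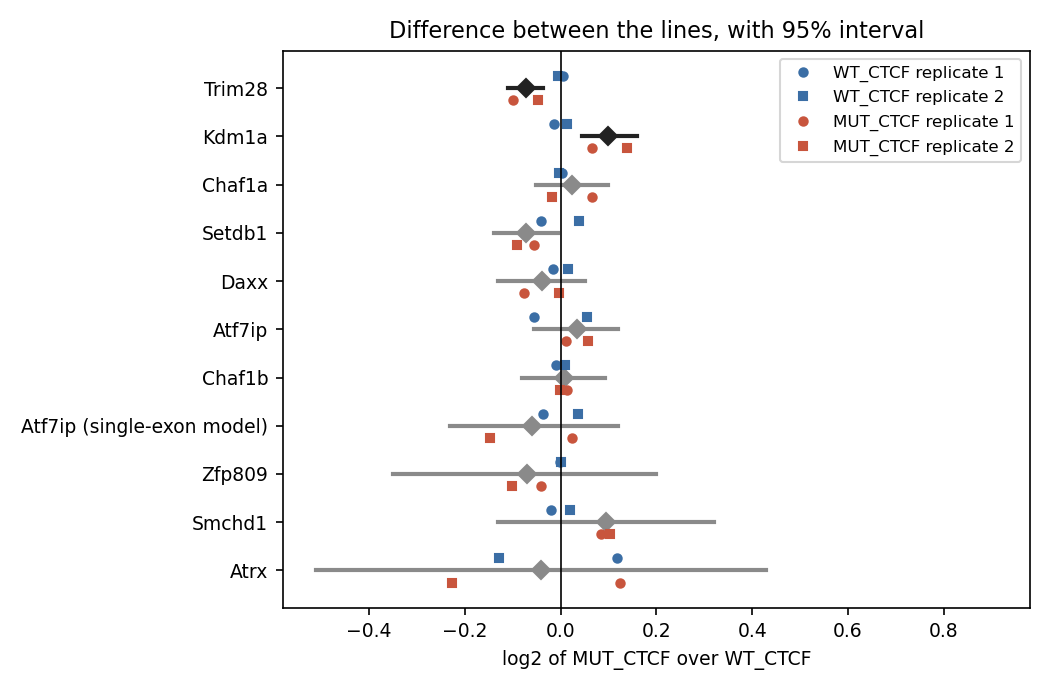
Log2 fold change of MUT_CTCF over WT_CTCF (x axis) for the 11 rows, with diamonds for the edgeR estimate, bars for its 95% interval, black where the adjusted p was under 0.05, and points for each library relative to the WT_CTCF mean. Trim28 at -0.073 and Kdm1a at 0.10 are black, and the interval is narrowest for Trim28 and widest for Atrx, the rows with the most and the fewest counts.

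Partners were compared through the ratio of their RPKM within each library, which no scaling between libraries can move. Trim28 stood at 22.3 and 20.9 times Setdb1 in WT_CTCF and 20.9 and 22.2 times in MUT_CTCF, so this ratio overlapped. The ratio of Setdb1 to Atf7ip was 1.51 and 1.48 in WT_CTCF and 1.43 and 1.35 in MUT_CTCF, which did not overlap. Chaf1a to Chaf1b was 2.70 and 2.65 against 2.77 and 2.64, and Daxx to Atrx was 157 and 190 against 150 and 201. Both of these ratios overlapped between the lines. Kdm1a to Rcor2, a CoREST subunit, was 1.46 and 1.45 in WT_CTCF and 1.38 and 1.40 in MUT_CTCF, which did not overlap, as for Setdb1 to Atf7ip. Rcor2 was itself called higher (log2 fold change 0.17, edgeR adjusted p = 0.00308), so this ratio partly restates its call. The other CoREST genes Rcor1 and Rcor3 were not called, at 0.0090 and 0.047, and no ratio was taken to them. No test was run on the ratios. With 2 libraries per line such separation is common, as normalized counts of 44.7% of all tested genes did not overlap between the lines.

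The genes that act with these factors were taken in 7 lists, of which 88 genes were tested. Of these, 9 (10.2%) passed an adjusted p of 0.05, against 3.17% of all tested genes, with 5 higher and 4 lower. The median log2 fold change of the 88 was -0.0085. The lists were chosen with earlier results of these data known, and the shares were not matched for level. They are therefore no test of the lists. DESeq2 called 5 genes of the lists. In the fits that left out a library, each of the 9 called genes kept its direction. Such fits leave 1 library in a line, so their calls are given below beside those over all genes.

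Among HUSH, MORC and other SETDB1 partners, 1 of 11 rose and none fell, with a median of 0.0041. Mphosph8, the H3K9me3 reader of the HUSH complex, had 237 and 231 counts in WT_CTCF and 339 and 359 in MUT_CTCF (log2 fold change 0.57, standard error 0.15, edgeR adjusted p = 0.0190). It shares 384 exon bases with Gm16973 on the opposite strand, and DESeq2 gave an adjusted p of 0.103. Among HP1 proteins and H3K9 methyltransferases, 1 of 12 rose, with a median of -0.0013. This was Ehmt2 (G9a, the H3K9me2 methyltransferase), at 10277 and 10434 counts in WT_CTCF and 10935 and 11698 in MUT_CTCF (log2 fold change 0.12, standard error 0.035, edgeR adjusted p = 0.0326, 0.0553 by the exact test and 0.136 by DESeq2). For Ehmt2, leaving out MUT_CTCF replicate 1 gave 0.18, and leaving out MUT_CTCF replicate 2 gave 0.062.

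Among KRAB and other sequence-specific repressors, 1 of 12 fell, with a median of -0.033. Zfp57, the KRAB protein that keeps imprints methylated through TRIM28, had 16001 and 15562 counts in WT_CTCF and 14163 and 13983 in MUT_CTCF (log2 fold change -0.17, standard error 0.030, edgeR adjusted p = 1.25e-04). Both MUT_CTCF libraries were below both WT_CTCF libraries. Zfp42 (REX1), the most abundant repressor of the list at 438 RPKM, did not pass (log2 fold change -0.060, edgeR adjusted p = 0.212).

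Among LSD1-CoREST and NuRD subunits, 3 of 17 rose and none fell, with a median of 0.029. Rcor2 had 7509 and 7695 counts in WT_CTCF and 8470 and 8662 in MUT_CTCF (log2 fold change 0.17, standard error 0.036, edgeR adjusted p = 0.00308). Gse1 rose by 0.18 on the log2 scale (edgeR adjusted p = 0.0300, 0.142 by DESeq2, and a rise of 0.12 without MUT_CTCF replicate 2), and it shares 2758 exon bases with Gins2 on the opposite strand. Of the other subunits, 14 did not pass, among them Rcor1 at 0.0090 and Hdac1 at 0.029.

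Among histone chaperones and H3.3 genes, 1 of 18 fell, with a median of -0.032. Supt16h, a subunit of the FACT chaperone, had 6903 and 6946 counts in WT_CTCF and 6279 and 6238 in MUT_CTCF (log2 fold change -0.15, standard error 0.038, edgeR adjusted p = 0.0142), and it shares 889 exon bases with Rpgrip1 on the opposite strand. Its FACT partner Ssrp1 did not pass, at -0.022. Among DNA methylation genes, 1 of 8 fell, with a median of 0.020. Dnmt3l, the cofactor of the de novo methyltransferases, had 3482 and 3544 counts in WT_CTCF and 2782 and 2733 in MUT_CTCF (log2 fold change -0.36, standard error 0.051, edgeR adjusted p = 2.89e-06), and it shares 67 exon bases with Aire on the opposite strand.

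The 2-cell-like genes, several of which are driven by MERVL repeats when the silencing factors are lost, lay on the lower side in MUT_CTCF, though Zscan4d alone passed the test. The list held 20 genes, of which 12 were in the count table and 10 were tested. All 10 tested genes had a log2 fold change below 0, between -0.61 and -0.15. Their median was -0.37 against 0.0034 over all tested genes, and 1 passed. Several of the 10 are Zscan4 copies, and Dux and Tdpoz3 had at most 25 counts in a library. Zscan4d, a Zscan4 gene of the 2-cell embryo, had 627 and 613 counts in WT_CTCF and 421 and 440 in MUT_CTCF (log2 fold change -0.53, standard error 0.11, edgeR adjusted p = 0.00270). The Zscan4 genes are near-identical copies, so reads can be lost or split among them. The summed level of the list was 57.3 to 58.4 CPM in WT_CTCF and 44.2 to 45.3 in MUT_CTCF, so the lines did not overlap. Most of this sum came from the Zscan4 copies, and 44.7% of all tested genes, taken singly, had lines that did not overlap. In a bulk sample, fewer 2-cell-like cells and less RNA per such cell cannot be told apart.

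**Figure D4:**
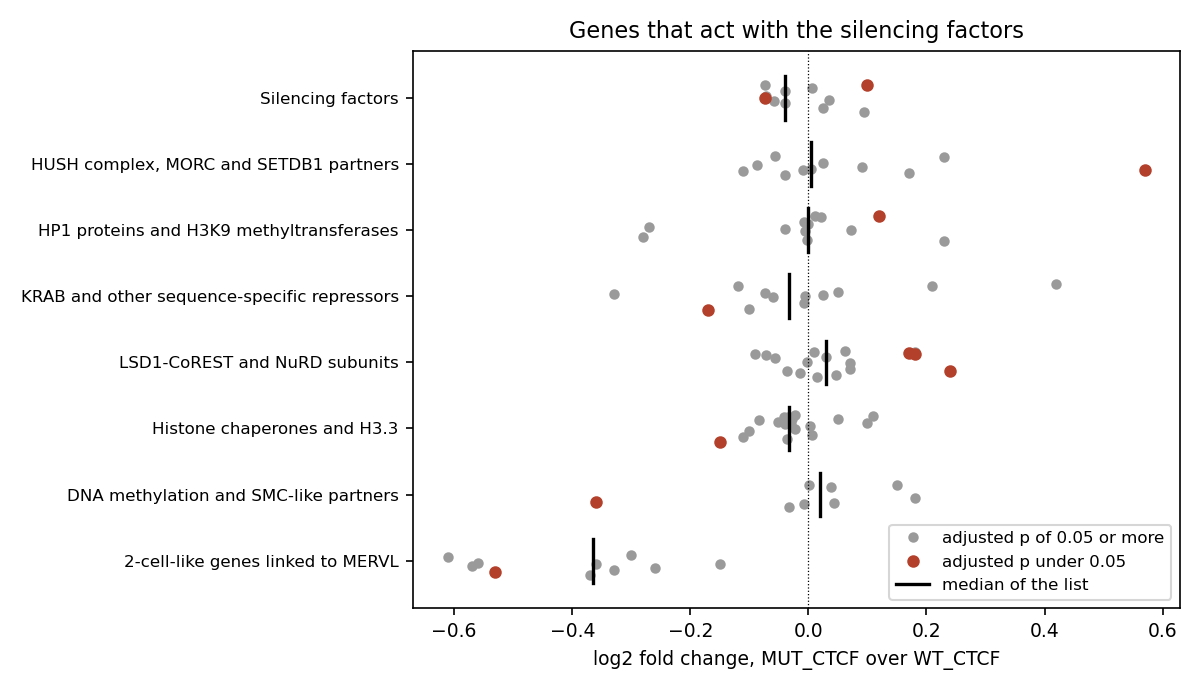
Log2 fold change of MUT_CTCF over WT_CTCF (x axis) for each tested gene of the 11 rows and of the 7 lists, with red points where the edgeR adjusted p was under 0.05 and a bar at the median of each group. The medians of 7 groups lie between -0.039 and 0.029, and that of the 2-cell-like genes lies at -0.37.

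Genes next to the factors were compared within 100 kb, a distance chosen after the data had been seen. Of 75 tested neighbours, 7 (9.33%) passed an adjusted p of 0.05, against 3.17% of all tested genes. These shares were not matched for level, and most of the 7 came from a single locus. Daxx had 5 of the 7 among its 18 neighbours, a stretch of chromosome 17 in the major histocompatibility region. H2-K1 and Kank3 were higher by 0.26 and 0.24 on the log2 scale, and Rps28, Wdr46 and Kifc1 fell by 0.16, 0.15 and 0.12 (edgeR adjusted p from 0.00145 to 0.0358). Kank3 and Rps28 share 88 exon bases. Daxx itself, between them, was not called. Acp5 near Zfp809 was higher by 0.36 and Cox7b near Atrx was lower, at -0.21. None of the 9 neighbours of Trim28 or the 2 of Kdm1a was called.

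Genes most like the called factors across the 4 libraries were sought by distance in centred log2 CPM among 8281 genes. For Trim28 these were Mrps31 and Nudt19, at distances of 0.0036 and 0.0063, and for Kdm1a they were Bre and Srebf2, at 0.012 and 0.013. Of these, Srebf2 passed an adjusted p of 0.05 in edgeR (0.0344), and Mrps31 (0.591), Nudt19 (0.734) and Bre (0.603) did not. Close matches are easily found with 4 values per gene and 8281 genes, so this likeness is a description only.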

How the data were processed

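RNA-seq was measured in 2 WT_CTCF and 2 MUT_CTCF libraries. Per the submitters' notes and the study's methods, the authors trimmed reads with Trim Galore 0.4.4, mapped them with STAR (mm9) and deposited raw counts of uniquely mapped reads per gene from HTSeq 0.9.1. The authors' own edgeR table (log2 fold change, average log2 CPM, p-value, false discovery rate) was not used.

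Genes were kept by filterByExpr (minimum 10 counts), scaled by TMM and tested with edgeR 4.0.16 (R 4.3.3; glmQLFit, glmQLFTest, two-sided) on all 16264 genes, with Benjamini-Hochberg adjustment over them. Intervals are at 95%. RPKM used the union of exons of GENCODE M1 (mm9), which named 37205 of 37620 identifiers. With about 40806428 counts per library, 3 counts, the limit a count of 0 allows, were at most 0.074 CPM, for counting error only. Replicates differed beyond sampling noise (chi-square per degree of freedom 3.61 and 4.27).

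The members and lists were chosen with earlier results of these data known. All 10 genes were named, with up to 3 called genes per list, by smallest p (1 of these is not reported here), and for each called factor the 2 genes most alike with a mean of at least 500 counts. Neighbours, called marker genes and list genes that did not pass were named after their values were seen. Alternatives were DESeq2 1.42.0, the exact test, DESeq2's size factors, library size scaling, other filters, a replicate block, each library left out and, added after seeing the data, a correction for G and C content.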

Additional observations from a re-analysis of the deposited data

How the results depend on the processing

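The calls on the silencing factors depended on the test. The count of 2 called rows became 0 with DESeq2, 0 with edgeR's exact test, 0 with no filter and 1 with library size scaling. A fit that left out a library assumes that the lone library varies like the other line. The calls on the factors were lost in those fits. Calls over all genes fell there as well, so this loss is not particular to the factors. The 515 calls over all genes became 245 with DESeq2, 29 with no filter and 0 to 242 with a library left out (0 without either MUT_CTCF library, 193 without WT_CTCF replicate 1, 242 without WT_CTCF replicate 2). The 9 calls in the lists became 5 with DESeq2, 1 with no filter and 0 to 5 with a library left out. The calls over all genes rose to 588 when each library had to hold at least 10 reads. They rose to 698 with the replicate block and 710 with the correction for G and C. The 212 genes past the study's criterion became 126 with DESeq2 and 117 when each library had to hold at least 10 reads. The cause was not tested.

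Over all 12 alternatives, the adjusted p of Trim28 ran from 1.66e-04 to 0.484 and that of Kdm1a from 0.00839 to 0.532, and both kept their direction. With a library left out, the log2 fold change ran from -0.10 to -0.047 for Trim28 and from 0.064 to 0.14 for Kdm1a, and from -0.11 to -0.033 for Setdb1. In the same fits the direction turned for Atf7ip (-0.020 to 0.090), its single-exon model (-0.15 to 0.023), Chaf1a (-0.019 to 0.064), Chaf1b (-0.0041 to 0.015, with -3.91e-04 without MUT_CTCF replicate 1) and Atrx (-0.23 to 0.12, with 0.087 without WT_CTCF replicate 1). The median of the 11 rows, -0.039, became -0.017 with the correction for G and C and lay between -0.023 and 0.012 with a library left out, above 0 without MUT_CTCF replicate 2. Counted over the longest transcript, the RPKM ratio of Trim28 to Atrx was 3319 instead of 3939, and Kdm1a stood at 154 RPKM instead of 89.8 and Chaf1b at 41.9 instead of 23.7, above Daxx (40.6) and Atf7ip and nearer Chaf1a (63.8). None of the 9 called list genes changed direction under any alternative, and Dnmt3l passed in all 8 settings that kept every library.

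Same-numbered libraries had deviations from the mean of their line correlated at -0.0192 over all tested genes. Counting noise enters this value, so it cannot show whether the replicate numbers pair the samples. With the replicate block, 2 rows and 698 genes were called, with an adjusted p of 0.00347 for Trim28 and 0.0105 for Kdm1a, and no other call on the factors changed. Depth limited Atrx, Zfp809 and Smchd1, at 110 to 548 counts.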
